A study of Homo sapiens with 24 samples.

Results

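The 47 genes described here act in homologous recombination or in the Fanconi anaemia pathway of DNA repair. They were fixed by name: 28 recombination genes and 19 genes of the Fanconi anaemia pathway, among 16796 genes listed in any of the tables. The 19 are called FANC genes here, and they include pathway genes without a FANC symbol, such as USP1, FAN1, REV1, REV3L and POLN. Their RNA levels were measured by total RNA sequencing in small cell lung cancer lines kept for 24 h in 0.1 nM lurbinectedin or in its vehicle DMSO. Each treatment was given to 3 replicates of H187 and H209, which the study labels ISL1 "high", and of H82 and SHP-77, which it labels ISL1 "low". This gave 24 libraries in 8 groups of 3, described as biological triplicates. Each class is represented by 2 established lines, so a class difference holds for these 4 lines. All 47 genes were listed in the tables of H187, H209 and H82, and 46 in that of SHP-77, where DMC1 was missing. The 3 lurbinectedin libraries of SHP-77 held 0, 2 and 2 DMC1 reads.

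Homologous recombination repairs a broken chromosome by copying an intact sister sequence. Nucleases first trim the break to single-stranded DNA, RPA coats that strand, and BRCA2 with its partners prepares it for strand exchange. The Fanconi anaemia pathway recognises cross-linked DNA with a multi-subunit core complex, which attaches ubiquitin to the FANCD2 and FANCI pair, after which nucleases and translesion polymerases act on the lesion. BRCA1, BRCA2, PALB2, BRIP1, RAD51C and XRCC2 also carry Fanconi names and were counted here with recombination. Lurbinectedin binds the minor groove of DNA and forms adducts with guanine.

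Total counts per library lay between 24226553 and 36415190. Under DMSO, the neuroendocrine marker ISL1 averaged 252 CPM (library-size-normalised read count, TMM-scaled) in H187 and 215 CPM in H209, against 3.62 CPM in H82 and 0.912 CPM in SHP-77. The neuroendocrine markers SYP, INSM1, NCAM1 and UCHL1 were listed in all 4 lines, with INSM1 lowest in H82 at 11.9 CPM, and CHGA was not listed in any. Of the leukocyte markers PTPRC and CD3E were not listed and CD68 averaged at most 1.6 CPM under DMSO. The highest mean of any fibroblast, endothelial, squamous or airway marker under DMSO was 7.96 CPM, for VWF in H187.

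More of these genes were called higher with lurbinectedin in the ISL1-high lines than in the ISL1-low lines, and the same held for all genes. The ISL1-low lines were not alike, with 0 called higher in H82 and 6 in SHP-77. In H187, 20 of the 47 genes were called higher and 1 lower, where 12.2% and 12.7% of all 14023 genes were called in those directions. In H209, 28 were called higher and 4 lower, where 22.7% and 22.5% of 14421 genes were called. In H82, 0 were called higher and 1 lower, against 1.55% and 1.38% of all genes. DESeq2 also called 0 higher and 1 lower there. At an unadjusted p below 0.05 edgeR counted 1 higher and 9 lower in H82. In SHP-77, 6 of 46 were called higher and 1 lower, against 1.98% and 3.21%. A call is an adjusted p below 0.05 in edgeR's quasi-likelihood test with Benjamini-Hochberg adjustment over all genes of the line. No called change reached 2-fold. In bulk samples such as these, fewer cells of a kind and less RNA per cell cannot be told apart.

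**Figure D1:**
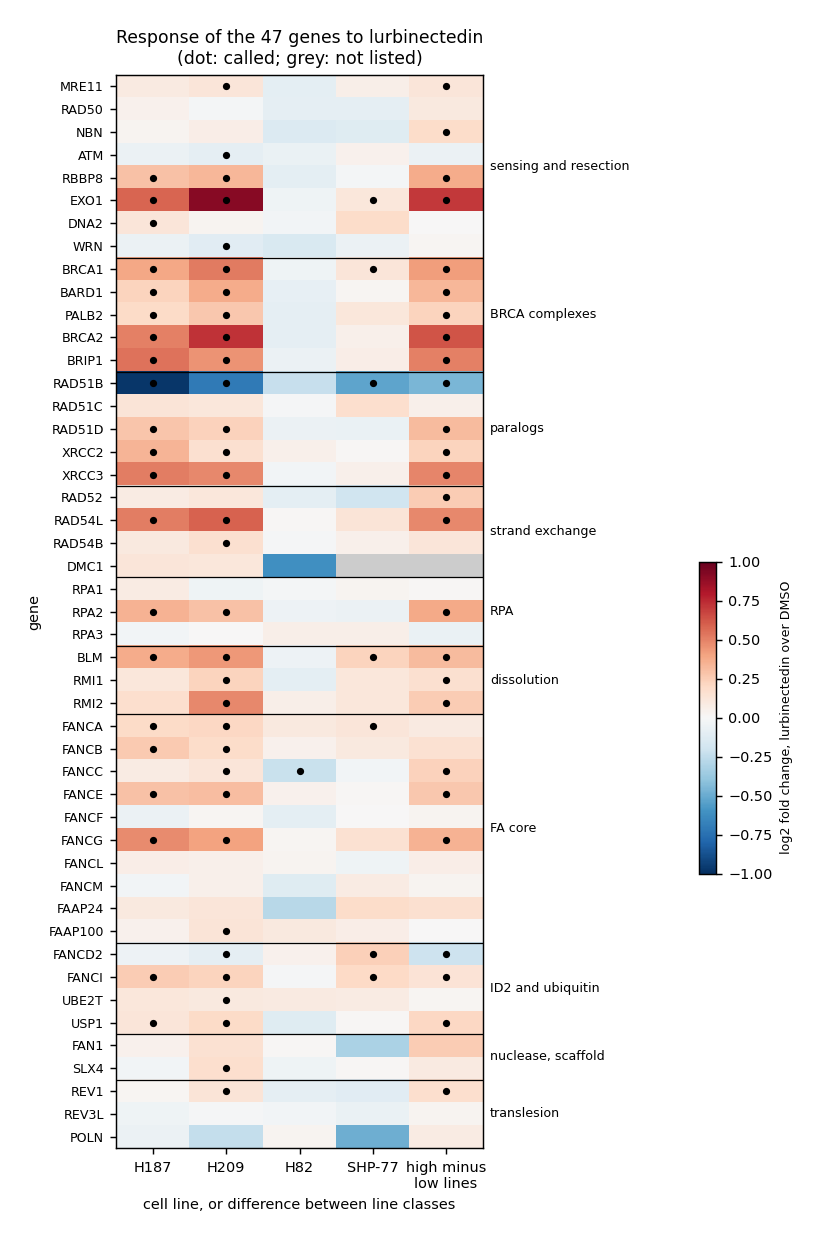
Log2 fold change (lurbinectedin over DMSO, colour) of the 47 genes (rows, grouped by role) in each line (columns), with the difference between ISL1-high and ISL1-low lines in the last column. Dots mark called values and grey marks DMC1, which was not listed in SHP-77. Dots fill most of the H209 column, fewer of the H187 column, and 1 cell of the H82 column.

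The order of the recombination and FANC medians, given without a test, depended on where 6 dual-named genes were counted. With those genes among the recombination genes, that set had the higher median in both ISL1-high lines. In H187 and H209 the recombination median log2 fold changes were 0.15 and 0.19, and in H82 and SHP-77 they were -0.06 and 0.05. The FANC medians were 0.07 for H187, 0.13 for H209, 0.01 for H82 and 0.01 for SHP-77, and the median of all genes was 0.00 in each. By role in H187, the median was 0.09 for the core complex and 0.11 for FANCD2, FANCI, UBE2T and USP1. There it was 0.00 for FAN1 with SLX4 and -0.04 for the translesion polymerases. In H209 these medians were 0.13, 0.15, 0.16 and -0.01, in the same order. Of the 28 recombination genes, 14 were higher and 1 lower in H187, and 17 were higher and 3 lower in H209. Of the 19 FANC genes, 6 were higher and 0 lower in H187 (edgeR counted 0 lower also at an unadjusted p below 0.05, as did DESeq2 after adjustment), and 11 were higher and 1 lower in H209. With the 6 dual-named genes counted as FANC instead, the recombination median was 0.12 and the FANC median 0.11 in H187. In H209 the order turned, with a recombination median of 0.14 and a FANC median of 0.15. A total of 19 genes were called higher in both ISL1-high lines, which is 19 of the 20 in H187 and 19 of the 28 in H209. Of all genes, 12.2% were called higher and 12.7% lower in H187, and 22.7% and 22.5% in H209. The share of all genes called higher in both lines was not counted, so the overlap is not read as particular to these genes.

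The genes that sense and trim breaks were divided. EXO1, a nuclease that extends resection (chromosome 1, 241848191 to 241889939, plus strand, hg38), had the largest increase of all 47. In H209 it measured 194, 190 and 184 CPM with lurbinectedin, against 100, 105 and 97.4 CPM with DMSO. In H187 it measured 95, 95.1 and 95.1 CPM with lurbinectedin, against 62.8, 63.2 and 65.1 CPM with DMSO. The groups did not overlap in either line, and the log2 fold changes were 0.91 ± 0.03 in H209 (SE, adjusted p = 4.5e-26) and 0.58 ± 0.04 in H187 (adjusted p = 1.9e-09). In H82 EXO1 measured 88.1, 92.3 and 87.9 CPM with lurbinectedin and 92.8, 94.7 and 87.6 CPM with DMSO, and these groups overlapped. In SHP-77 it measured 118, 124 and 121 CPM with lurbinectedin and 109, 112 and 115 CPM with DMSO. That small difference (log2 0.11, adjusted p = 0.032) was lost without any 1 of 5 of the 6 libraries, all but DMSO replicate 3, where the adjusted p reached 0.13. RBBP8, which encodes the resection factor CtIP, rose to 217 ± 2.7 CPM in H209 with lurbinectedin, against 173 ± 0.919 CPM with DMSO (SD, n = 3 each; log2 0.33). In H187 RBBP8 rose to 118 ± 0.923 CPM, against 96.8 ± 3.45 CPM (log2 0.29).

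The MRN complex and its kinase moved little. MRE11 was called higher in H209 alone among the lines (log2 0.12), a call lost without DMSO replicate 2 or lurbinectedin replicate 1 (adjusted p up to 0.16). RAD50 and NBN were called in no line, with log2 values from -0.09 to 0.04 and from -0.14 to 0.07. ATM, the kinase that signals breaks, measured 79.5, 79.7 and 80.3 CPM with lurbinectedin in H209, against 83, 85.3 and 86.5 CPM with DMSO. The groups did not overlap, but the fall of 0.09 on the log2 scale (adjusted p = 0.032) was lost when any 1 library other than DMSO replicate 1 was left out, with adjusted p up to 0.099. In H187 ATM measured 93.6, 99.8 and 100 CPM with lurbinectedin and 102, 104 and 101 CPM with DMSO (adjusted p = 0.35). In H82 it measured 64.8, 68.5 and 71.6 CPM with lurbinectedin and 71.6, 74.5 and 69.4 CPM with DMSO, and in SHP-77 85.9, 92.4 and 86.6 CPM with lurbinectedin and 84.6, 83.3 and 89 CPM with DMSO. The ATM groups overlapped in both of these lines. The helicase WRN was lower in H209 by a similar margin (log2 -0.11), a call lost without DMSO replicate 2 or 3 or lurbinectedin replicate 2 or 3 (adjusted p up to 0.18). DNA2, a nuclease and helicase, was called higher in H187 only (log2 0.12), and that call was lost without any 1 of the 6 libraries (adjusted p up to 0.15).

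All 5 genes of the BRCA complexes were called higher in both ISL1-high lines, with medians of 0.39 in H187 and 0.45 in H209. Of all genes, 12.2% were called higher in H187 and 22.7% in H209. BRCA2, a mediator of strand exchange (chromosome 13, 32315480 to 32399672, plus strand), measured 148, 144 and 139 CPM with lurbinectedin in H209, against 84.6, 91 and 86.4 CPM with DMSO. The H187 libraries held 60.2, 60.2 and 55.9 CPM with lurbinectedin, against 37.7, 43.1 and 44.2 CPM with DMSO. All lurbinectedin libraries were above all DMSO libraries in both lines (log2 0.72 ± 0.03 and 0.50 ± 0.05, SE). In H82 BRCA2 measured 32.7, 33 and 36.6 CPM with lurbinectedin and 37.3, 34.4 and 37 CPM with DMSO. The SHP-77 libraries held 115, 120 and 117 CPM with lurbinectedin and 114, 108 and 118 CPM with DMSO. The groups overlapped in both ISL1-low lines.

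BRCA1, which directs resected breaks into recombination, measured 181, 177 and 177 CPM with lurbinectedin in H187, against 135, 138 and 135 CPM with DMSO. The H209 libraries held 149, 141 and 144 CPM with lurbinectedin, against 101, 102 and 100 CPM with DMSO. Neither line's groups overlapped (log2 0.39, adjusted p = 2.6e-07, and 0.52, adjusted p = 4.2e-18). In H82 BRCA1 measured 90.3, 95.1 and 95.9 CPM with lurbinectedin and 95.1, 96.8 and 98 CPM with DMSO. Values in SHP-77 were 104, 105 and 99 CPM with lurbinectedin and 94.6, 91.5 and 97.2 CPM with DMSO. The SHP-77 call (log2 0.12, adjusted p = 0.037) was lost without DMSO replicate 1 or 2 or lurbinectedin replicate 1 or 2, with adjusted p up to 0.19. BRIP1, a helicase that binds BRCA1, measured 113, 115 and 115 CPM with lurbinectedin in H187, against 77.9, 78 and 78.6 CPM with DMSO. Values in H209 were 101, 101 and 97.7 CPM with lurbinectedin, against 70, 76.1 and 73.7 CPM with DMSO. BRIP1 spans 184.4 kb and rose in both lines (log2 0.54 and 0.45). The H82 libraries held 69.1, 74.2 and 66.6 CPM with lurbinectedin and 74.4, 73.8 and 71.4 CPM with DMSO, and in SHP-77 41.9, 44 and 40.1 CPM with lurbinectedin and 37.7, 41.3 and 40.8 CPM with DMSO. Neither difference was called.

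PALB2, which bridges BRCA1 and BRCA2, measured 44.2, 42 and 41.5 CPM with lurbinectedin in H209, against 33.9, 37.3 and 34.7 CPM with DMSO. Values in H187 were 35, 32.7 and 34.2 CPM with lurbinectedin, against 30, 28.4 and 30.8 CPM with DMSO. Both lines' groups stood apart (log2 0.27 and 0.19), although the H187 call was lost without DMSO replicate 2 or lurbinectedin replicate 1 or 3 (adjusted p up to 0.069). In H82 PALB2 measured 26.6, 26.9 and 25.6 CPM with lurbinectedin and 28.8, 29.4 and 26 CPM with DMSO. Its SHP-77 levels were 13.6, 13.5 and 13.1 CPM with lurbinectedin and 12.5, 12.5 and 12.2 CPM with DMSO, a separation of the groups that was not called (adjusted p = 0.4). BARD1, the obligate partner of BRCA1, rose by log2 0.22 in H187 and 0.37 in H209.

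The paralogs, which assist strand exchange, held the one gene with a large fall. RAD51B (chromosome 14, 67819779 to 68683106, plus strand) spans 863.3 kb, the longest span among the 47. Its H187 levels were 5.14, 5.78 and 4.41 CPM with lurbinectedin, against 9.11, 10.1 and 10.9 CPM with DMSO. Its H209 levels were 2.96, 3.07 and 4.12 CPM with lurbinectedin, against 5.7, 5.47 and 5.52 CPM with DMSO. Libraries of SHP-77 gave 4.53, 4.61 and 3.74 CPM with lurbinectedin, against 6.16, 6.03 and 6.27 CPM with DMSO. All lurbinectedin libraries lay below all DMSO libraries in these lines, with falls of 0.97 ± 0.11, 0.71 ± 0.13 and 0.53 ± 0.11 on the log2 scale (SE). In H82 RAD51B measured 2.49, 2.49 and 2.25 CPM with lurbinectedin and 3.18, 2.48 and 2.79 CPM with DMSO, which overlapped (log2 -0.23, adjusted p = 0.45).

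The other paralogs rose or were not called. XRCC3 rose to 44.7 ± 1.15 CPM in H187 with lurbinectedin, against 31.3 ± 2.15 CPM with DMSO, and to 58.6 ± 0.996 CPM in H209, against 42.1 ± 1.66 CPM (SD, n = 3 each; log2 0.51 and 0.48). RAD51D rose by log2 0.28 in H187 and 0.23 in H209, where the call was lost without lurbinectedin replicate 2 (adjusted p = 0.054). XRCC2 rose by log2 0.34 in H187, and its H209 call (log2 0.16) was lost without DMSO replicate 1 or lurbinectedin replicate 1 or 3 (adjusted p up to 0.28). RAD51C measured 24.2, 26.6 and 24.6 CPM with lurbinectedin and 25.7, 20.7 and 22.3 CPM with DMSO in H187. Libraries of H209 gave 31.3, 30.6 and 32 CPM with lurbinectedin and 27.1, 30.5 and 29.5 CPM with DMSO, and in H82 34.8, 36.4 and 34.2 CPM with lurbinectedin and 33.7, 33.8 and 39 CPM with DMSO. In SHP-77 it measured 47.8, 46.7 and 44.5 CPM with lurbinectedin and 41, 41.1 and 41.6 CPM with DMSO. RAD51C was called in no line, though its SHP-77 groups stood apart and its adjusted p of 0.05 lay at the threshold.

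**Figure D2:**
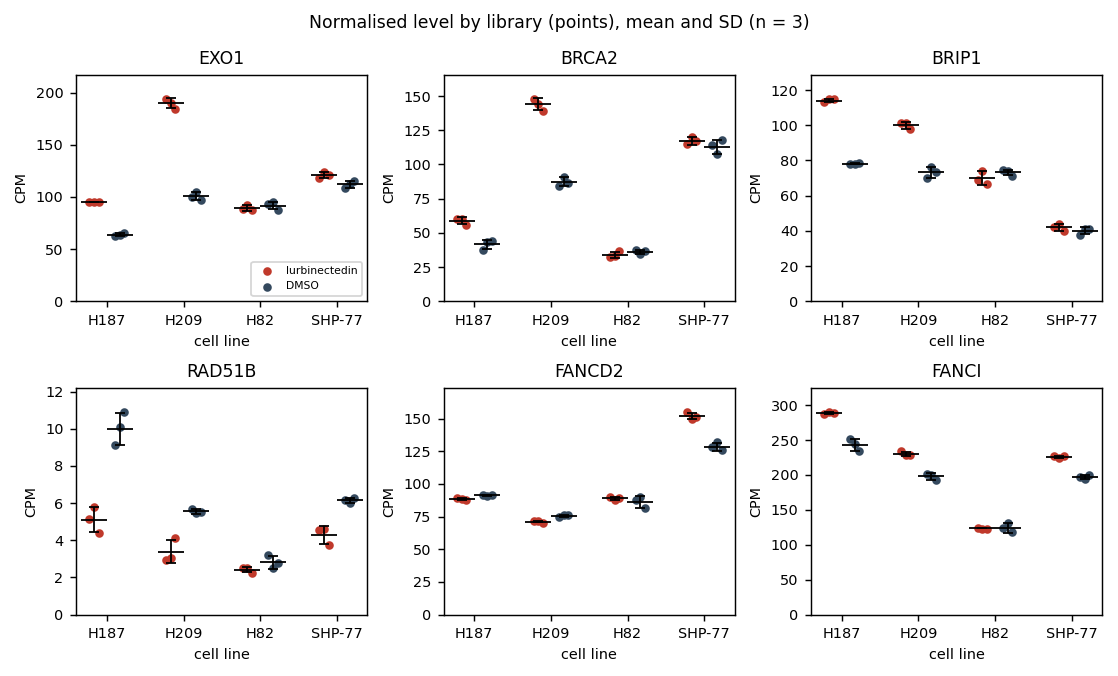
CPM of 6 genes in each library (points), with mean and SD (n = 3), for lurbinectedin (left of each pair) and DMSO in 4 lines. EXO1, BRCA2 and BRIP1 stand above DMSO in H187 and H209, RAD51B lies below DMSO there and in SHP-77, and FANCI, unlike FANCD2, lies above DMSO in H187 and H209.

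Of the strand exchange genes, RAD54L, a motor protein that drives the exchange, measured 76.9, 71.7 and 74.2 CPM with lurbinectedin in H187, against 51.4, 50.7 and 53.8 CPM with DMSO. In H209 it measured 40.3, 39.6 and 38.9 CPM with lurbinectedin, against 26.8, 25.9 and 26.1 CPM with DMSO. The groups stood apart in both lines (log2 0.51 and 0.59). In H82 RAD54L measured 58.2, 61.9 and 64.3 CPM with lurbinectedin and 61.6, 58.5 and 63.2 CPM with DMSO, and in SHP-77 46.5, 39.9 and 44.3 CPM with lurbinectedin and 39, 40 and 40.4 CPM with DMSO. Both overlapped. RAD54B rose in H209 by log2 0.16, and RAD52 was called in no line. DMC1, the meiotic recombinase, averaged 15.3 CPM with lurbinectedin and 14.1 CPM with DMSO in H209 but under 1 CPM in both groups of H187 and H82. Among the RPA subunits, RPA2 rose to 84.5 ± 0.922 CPM in H187 with lurbinectedin, against 66.4 ± 3.91 CPM with DMSO, and to 53.7 ± 0.401 CPM in H209, against 43.7 ± 2.3 CPM. RPA1 and RPA3, its partners in the same trimer, were called in no line, with log2 values between -0.04 and 0.08.

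BLM, the helicase that dissolves crossed intermediates, measured 133, 136 and 140 CPM with lurbinectedin in H187, against 105, 108 and 105 CPM with DMSO. The H209 libraries held 107, 105 and 106 CPM with lurbinectedin, against 77, 81.8 and 76.9 CPM with DMSO. The SHP-77 libraries held 75.1, 78 and 72 CPM with lurbinectedin, against 63.4, 61.5 and 68.7 CPM with DMSO. The groups stood apart in these lines (log2 0.37, 0.43 and 0.22). In H82 BLM measured 66.9, 73.4 and 69.9 CPM with lurbinectedin and 75.2, 70.9 and 71.9 CPM with DMSO, which overlapped. Its cofactors RMI1 and RMI2 were called higher in H209 (log2 0.22 and 0.48) and not in H187 (log2 0.11 and 0.17).

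Within the Fanconi core complex, 4 of 10 genes were called higher in H187 and 6 of 10 in H209. The shares of all genes called higher were 12.2% and 22.7%. FANCG rose to 55.2 ± 2.33 CPM in H187 with lurbinectedin, against 39.9 ± 2.46 CPM with DMSO, and to 97.7 ± 2.38 CPM in H209, against 74.3 ± 1.8 CPM (SD, n = 3 each; log2 0.47 and 0.40). FANCE rose by log2 0.29 and 0.31, and FANCB by 0.26 and 0.18, where the H209 call of FANCB was lost without lurbinectedin replicate 1 (adjusted p = 0.14). FANCA measured 116, 115 and 119 CPM with lurbinectedin in H209, against 101, 101 and 102 CPM with DMSO. Libraries of H187 gave 70, 67.3 and 66.3 CPM with lurbinectedin, against 56.9, 58.8 and 62.3 CPM with DMSO. Both lines' groups stood apart, with log2 values of 0.21 and 0.19. In SHP-77 FANCA measured 90.6, 85.5 and 88.9 CPM with lurbinectedin, against 81.9, 81.1 and 80.6 CPM with DMSO. That call (log2 0.12, adjusted p = 0.03) was lost without DMSO replicate 2 or 3 or lurbinectedin replicate 1 or 3 (adjusted p up to 0.22). In H82 FANCA measured 86.5, 78.5 and 84.2 CPM with lurbinectedin and 74.9, 80.6 and 77.5 CPM with DMSO, which overlapped.

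FANCC (chromosome 9, 95099054 to 95317709, minus strand) was the one gene called in H82. It measured 23, 22.8 and 23.9 CPM with lurbinectedin there, against 27.4, 27.2 and 26.8 CPM with DMSO, without overlap. That fall of 0.22 on the log2 scale (adjusted p = 0.024) was lost without any 1 library except DMSO replicate 3, with adjusted p up to 0.12. In H209 FANCC measured 58.4, 55.7 and 55.2 CPM with lurbinectedin and 52.7, 47.8 and 55.6 CPM with DMSO, a call (log2 0.12) lost without DMSO replicate 2 or lurbinectedin replicate 1 (adjusted p up to 0.33). In H187 it measured 45.8, 42.7 and 40.9 CPM with lurbinectedin and 41.4, 40.9 and 39.7 CPM with DMSO. Values in SHP-77 were 23.9, 22.5 and 22.9 CPM with lurbinectedin and 24.1, 22.5 and 24 CPM with DMSO. FANCF, FANCL, FANCM and FAAP24 were called in no line. FAAP100 was called higher in H209 (log2 0.13), a call lost after correction for GC content (adjusted p = 0.94).

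FANCD2 and FANCI encode the pair that receives ubiquitin, and their values differed by line. FANCI measured 288, 290 and 289 CPM with lurbinectedin in H187, against 251, 245 and 235 CPM with DMSO. Values in H209 were 234, 229 and 228 CPM with lurbinectedin, against 201, 200 and 193 CPM with DMSO, and in SHP-77 227, 224 and 227 CPM with lurbinectedin, against 197, 194 and 200 CPM with DMSO. FANCI stood apart from DMSO in those lines (log2 0.25, 0.22 and 0.20) and not in H82, with 124, 123 and 123 CPM under lurbinectedin and 124, 131 and 118 CPM under DMSO. FANCD2 (chromosome 3, 10026387 to 10101937, plus strand) measured 155, 150 and 151 CPM with lurbinectedin in SHP-77, against 128, 132 and 126 CPM with DMSO (log2 0.24, adjusted p = 7.2e-06). In H187 FANCD2 measured 89, 88.3 and 87.4 CPM with lurbinectedin and 91.5, 90.7 and 91.3 CPM with DMSO (adjusted p = 0.45). Its H209 levels were 71.4, 71.4 and 70.4 CPM with lurbinectedin, against 74.9, 76.4 and 76.2 CPM with DMSO. That fall of 0.09 on the log2 scale (adjusted p = 0.027) was lost without DMSO replicate 2 or 3 or lurbinectedin replicate 1 or 3, with adjusted p up to 0.084. In H82 FANCD2 measured 90.3, 88 and 88.9 CPM with lurbinectedin and 87.8, 90 and 81.5 CPM with DMSO, which overlapped.

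The ubiquitin enzymes of the pathway changed little. USP1, which removes the ubiquitin, measured 335, 315 and 307 CPM with lurbinectedin in H209, against 288, 283 and 266 CPM with DMSO (log2 0.19). The H187 libraries held 262, 277 and 273 CPM with lurbinectedin, against 241, 248 and 260 CPM with DMSO. The H187 call (log2 0.12, adjusted p = 0.032) was lost without DMSO replicate 1 or 2 or lurbinectedin replicate 2 or 3 (adjusted p up to 0.14). In H82 USP1 measured 175, 194 and 182 CPM with lurbinectedin and 204, 201 and 195 CPM with DMSO, and in SHP-77 152, 157 and 150 CPM with lurbinectedin and 149, 149 and 158 CPM with DMSO. UBE2T, the enzyme that attaches the ubiquitin, measured 163, 162 and 168 CPM with lurbinectedin in H187 and 168, 152 and 138 CPM with DMSO, which overlapped. Libraries of H209 gave 56.7, 57.9 and 54.7 CPM with lurbinectedin, against 54.2, 52.3 and 51.5 CPM with DMSO, a call (log2 0.10) lost without any 1 of DMSO replicates 2 and 3 and lurbinectedin replicates 1 and 2 (adjusted p up to 0.2). Values in H82 were 75.8, 62.6 and 70.1 CPM with lurbinectedin and 61.6, 70.9 and 63.4 CPM with DMSO. Its SHP-77 levels were 49, 48.9 and 48.5 CPM with lurbinectedin and 46, 48.7 and 43.6 CPM with DMSO.

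The translesion polymerases showed 1 call among them. REV3L, the catalytic subunit of polymerase zeta, measured 321, 316 and 316 CPM with lurbinectedin in H187 and 330, 340 and 311 CPM with DMSO. In H209 it measured 203, 197 and 184 CPM with lurbinectedin and 189, 202 and 197 CPM with DMSO, and in H82 107, 107 and 113 CPM with lurbinectedin and 114, 110 and 111 CPM with DMSO. Libraries of SHP-77 gave 149, 151 and 140 CPM with lurbinectedin and 151, 154 and 157 CPM with DMSO. REV3L was called in no line, with log2 values from -0.07 to -0.01. REV1 was called higher in H209 (log2 0.13), lost without DMSO replicate 2 or lurbinectedin replicate 3 (adjusted p up to 0.056), and POLN was called in no line. SLX4, the nuclease scaffold, rose in H209 (log2 0.17), and the nuclease FAN1 was called in no line.

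The response itself differed between the line classes for 26 of the 46 genes tested. The average fold change of the ISL1-high lines less that of the ISL1-low lines was called above 0 for 24 genes and below 0 for 2, where 15.9% and 15.5% of 11408 genes were called in those directions. Of 27 recombination genes 18 were called above 0 and 1 below, with a median difference of 0.22. Of 19 FANC genes 6 were called above 0 and 1 below, with a median of 0.09, against 0.00 for all genes. With the dual-named genes counted as FANC, 13 of 21 recombination genes were called above 0 and 1 below (median 0.18). Of 25 FANC genes, 11 were then called above 0 and 1 below (median 0.15). The smallest p-values belonged to EXO1 (log2 difference 0.71 ± 0.04, SE, adjusted p = 2.6e-17), BRCA2 (0.63 ± 0.05), BRIP1 (0.50 ± 0.04) and BRCA1 (0.42 ± 0.04). RAD51B (-0.46 ± 0.13, adjusted p = 0.0066) and FANCD2 (-0.21 ± 0.04, adjusted p = 1.4e-05) lay below 0. The FANCD2 log2 fold change was 0.24 in SHP-77, 0.04 in H82, -0.05 in H187 and -0.09 in H209. NBN and RAD52 were called above 0 here but in no single line. In H187, H209, H82 and SHP-77, NBN had 0.03, 0.07, -0.14 and -0.12, and RAD52 had 0.08, 0.11, -0.10 and -0.20.

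Genes of S phase and of mitosis moved in the same libraries. Both lists were chosen with earlier results of these data known, so their counts are descriptions and not a test. Of all genes, 12.2% were called higher and 12.7% lower in H187, and 22.7% and 22.5% in H209. In H82 the shares were 1.55% and 1.38%, and in SHP-77 1.98% and 3.21%. In H187, 16 of 18 S-phase genes were called higher, and in H209 17 of 18. In H82 1 was higher and 1 lower, and in SHP-77 2 were higher. Their summed level in H187 was 5002 to 5158 CPM with lurbinectedin, against 4064 to 4117 CPM with DMSO, and in H209 4739 to 4860 CPM, against 3735 to 3859 CPM. In H82 the sums were 4182 to 4294 CPM with lurbinectedin and 4281 to 4353 CPM with DMSO, and in SHP-77 3484 to 3581 CPM with lurbinectedin and 3408 to 3450 CPM with DMSO. Of 14 G2/M genes, H187 had 12 called lower, H209 had 14, H82 had 1 and SHP-77 had 2. Their summed level in H187 was 1660 to 1707 CPM with lurbinectedin, against 2116 to 2320 CPM with DMSO, and in H209 1636 to 1651 CPM, against 2177 to 2231 CPM. RRM2, a ribonucleotide reductase subunit, averaged 653 CPM with lurbinectedin in H209, against 440 CPM with DMSO. The mitotic kinase PLK1 averaged 94.8 CPM with lurbinectedin in H209, against 176 CPM with DMSO. The part of these shifts in the repair gene results was not tested.

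Further genes of the same pathways gave mixed counts. Their list and that of the end-joining genes were likewise chosen with earlier results of these data known. Of 39 tested, 14 were called higher and 3 lower in H187, 18 higher and 3 lower in H209, 0 higher and 1 lower in H82, and 2 higher and 2 lower in SHP-77. The shares of all genes called higher and lower were 12.2% and 12.7% in H187, 22.7% and 22.5% in H209, 1.55% and 1.38% in H82, and 1.98% and 3.21% in SHP-77. The 0 in H82 held in DESeq2 and for edgeR at an unadjusted p below 0.05. PSMC3IP, a cofactor of strand exchange, averaged 18.9 CPM with lurbinectedin in H187, against 12.1 CPM with DMSO (log2 0.65). SPIDR, a scaffold that promotes recombination, was called lower in all 4 lines, with log2 values of -0.46 (H187), -0.50 (H209), -0.26 (H82) and -0.27 (SHP-77). BABAM2, a member of the BRCA1-A complex, averaged 13.3 CPM with lurbinectedin in H187, against 23.4 CPM with DMSO. Of 11 end-joining genes, 0 were called higher and 3 lower in H187, and 3 higher and 3 lower in H209, where the shares of all genes called were 22.7% and 22.5%. DESeq2 also gave 0 higher in H187, and edgeR 1 at an unadjusted p below 0.05. The Ku subunit XRCC6 averaged 517 CPM with lurbinectedin in H209, against 596 CPM with DMSO.

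Genomic span was set beside the response. Across the 47 genes, span and log2 fold change had a rank correlation of -0.28 (H187), -0.31 (H209) and -0.24 (H82), and across 46 genes of -0.3 (SHP-77). These are descriptions over genes that share libraries. Among all genes, those spanning 300 to 1000 kb had a median log2 fold change of -0.39 in H187, with 75.3% of 514 called lower, and of -0.44 in H209, with 79% of 491 called lower. RAD51B was the only one of the 47 in that range. The part of span in the fall of RAD51B was not tested.

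**Figure D3:**
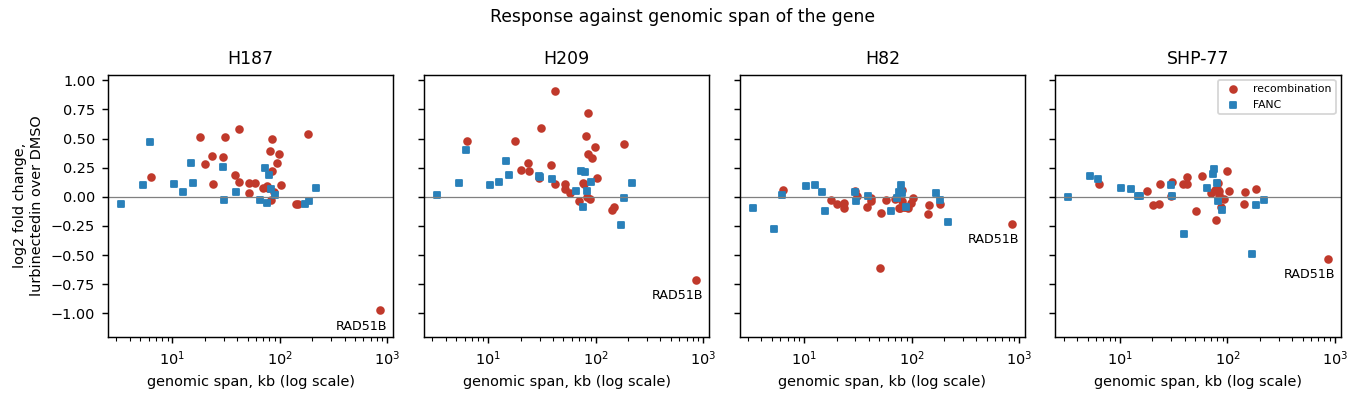
Log2 fold change (lurbinectedin over DMSO) of each gene against its genomic span in kb (log scale) in 4 lines, with recombination genes as circles and FANC genes as squares. RAD51B, at 863.3 kb, stands alone on the right and is below 0 in each panel.

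Promoter letters of E2F type, which many S-phase genes carry, were looked for because 19 of the genes rose in both H187 and H209. RefSeq windows (GRCh38.p14) matched 39 of the 47, and the 250 bases upstream of each start were searched on both strands. The first search used the 8-letter forms TTTGGCGC, TTTCGCGC and TTTCCCGC, which stood in 1 of 39 windows and in 2.38% of 27305 promoters, and in 0 of the 17 windows of genes that rose in both lines. A second search, made after that result was seen, used the last 7 letters of the same forms. It found them in 8 of 39 windows and in 9.51% of all promoters, in 4 of the 17 genes that rose in both lines and in 4 of the other 22. The outcome therefore depended on the length searched. The windows of BRCA1, RAD52 and RAD51B lie 44844, 40347 and 3762 bases from the deposited gene starts used for the coordinates here. Without these 3 windows, the 8-letter forms stood in 1 of 36 windows and the 7-letter forms in 7 of 36, in 4 of 16 genes that rose in both lines and in 3 of the other 20. CCAAT stood in 15 of 39 windows, against 33% of all promoters, and the 6-letter forms TTTGAA and TTCGAA in 5 of 39, against 14.6%. The last 120 bases before the start are shown for RAD54L and BLM, which hold the 7-letter form (capitals), and for BRCA2 and FANCA, which rose as well and hold none in these windows. They lie at chr1:46247568-46247687 (plus), chr15:90717226-90717345 (plus), chr13:32315388-32315507 (plus) and chr16:89816648-89816767 (minus).
RAD54L: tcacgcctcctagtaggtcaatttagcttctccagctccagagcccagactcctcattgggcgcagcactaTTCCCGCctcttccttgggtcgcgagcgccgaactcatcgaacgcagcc
BLM: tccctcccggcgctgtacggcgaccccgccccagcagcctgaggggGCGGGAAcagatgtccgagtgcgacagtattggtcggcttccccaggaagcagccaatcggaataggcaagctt
BRCA2: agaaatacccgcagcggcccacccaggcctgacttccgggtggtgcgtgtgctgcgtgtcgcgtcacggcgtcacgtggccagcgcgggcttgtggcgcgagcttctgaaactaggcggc
FANCA: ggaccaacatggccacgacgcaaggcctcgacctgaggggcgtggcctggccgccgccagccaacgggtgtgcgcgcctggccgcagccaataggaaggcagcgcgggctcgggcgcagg

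Under DMSO nearly every gene differed between lines, so that calls alone separated little. Between ISL1-high and ISL1-low lines 89.1% of all genes were called in either direction, and 24.6% were called and at least 2-fold apart. For single lines against the mean of the rest, calls covered 87.6% of all genes for H187, 87.0% for H209, 89.3% for H82 and 87.8% for SHP-77. Of the 46 genes tested, 28 were called higher and 12 lower in the ISL1-high lines, and 7 were at least 2-fold apart. Of all 11408 genes, 5163 were called higher and 4996 lower in the ISL1-high lines. The FANC genes were higher in 15 and lower in 2 of 19 cases (median log2 difference 0.50). The recombination genes were higher in 13 and lower in 10 of 27 (median 0.03), with a median of 0.01 for all genes. Over the 45 genes with at least 1 CPM in every line, the highest line exceeded the lowest by a median of 1.97-fold, against 2.52-fold for all 10591 such genes. SHP-77 had the lowest level for 21 of these 45 genes, where it was lowest for 24.1% of all genes.

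The 2 largest differences of a single line from the rest under DMSO belonged to FANCB and FANCF. FANCF, a core complex adaptor, measured 80.7, 80.2 and 74.9 CPM in H187, 35.8, 34.1 and 34.8 CPM in H209, 27.2, 26.4 and 27.5 CPM in SHP-77, and 9.45, 9.67 and 8.62 CPM in H82. No neighbouring lines overlapped. The log2 difference from the mean of the other lines was 1.93 in H187 and -2.18 in H82, where 25.3% and 30.2% of all genes were called and at least 2-fold apart. SLX4 measured 121, 122 and 129 CPM in H209, 93.7, 101 and 90.2 CPM in H187, 42.7, 42.9 and 42 CPM in SHP-77, and 26.2, 22.9 and 27.5 CPM in H82, an order without overlap. POLN measured 5.14, 4.28 and 5.91 CPM in H187 and 3.85, 3.81 and 4.46 CPM in H209, which overlapped, and 1.4, 1.17 and 1.14 CPM in H82 and 1.01, 0.813 and 1.14 CPM in SHP-77. FANCB measured 5.95, 6.57 and 6.72 CPM in SHP-77, against 38.4, 39.2 and 34.9 CPM in H82, 36.4, 34.3 and 40 CPM in H187 and 26, 28.5 and 26.2 CPM in H209. SHP-77 stood below the rest (log2 difference -2.38), where 23.8% of all genes were called and at least 2-fold apart.

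Several recombination genes and the FANC gene UBE2T also set single lines apart. DNA2 measured 13.6, 12.6 and 16.7 CPM in SHP-77, against 72.1, 75.4 and 68.1 CPM in H82, 56, 62 and 59 CPM in H209 and 52.4, 53.6 and 52 CPM in H187 (log2 difference -2.09). RMI2 measured 42.9, 42.4 and 42.3 CPM in H209, against 18.8, 18.4 and 18.3 CPM in H187, 14, 14.2 and 14.6 CPM in SHP-77 and 10.7, 10.2 and 8.77 CPM in H82. In H209 the RMI2 difference was 1.62, where 22.8% of all genes were called and at least 2-fold apart. RPA2 measured 153, 149 and 142 CPM in H82, against 78.2, 86.7 and 81 CPM in SHP-77, 72.5, 67.4 and 65.3 CPM in H187 and 42, 45.5 and 41.3 CPM in H209, an order without overlap. UBE2T measured 172, 156 and 143 CPM in H187, against 69, 78.8 and 70.5 CPM in H82, 53.2, 51.4 and 50.7 CPM in H209 and 47.7, 50.5 and 45.1 CPM in SHP-77. Within SHP-77 the partners PALB2 and BRCA2 stood on opposite sides of the other lines, with log2 differences of -1.33 and 1.15. Per kilobase of exon, UBE2T was the highest of the 46 genes, with a mean of 90.3 CPM per kb over the lines, and FAN1 the lowest with 0.243 CPM per kb.

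**Figure D4:**
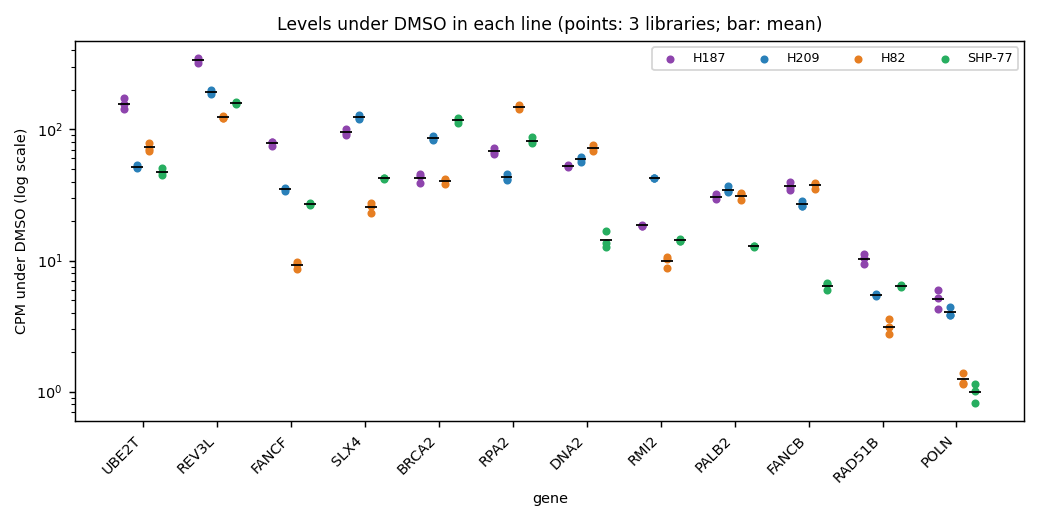
CPM under DMSO (log scale) of 12 genes in each library (points) of 4 lines, with the mean of 3 libraries as a bar. FANCF and SLX4 are lowest in H82, and DNA2, PALB2 and FANCB are lowest in SHP-77.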

How the data were processed

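Total RNA was sequenced from 24 libraries. The authors deposited whole-number read counts per gene in 1 table per line, made with STAR 2.7.10a, featureCounts (Subread 2.0.3) and hg38, per the submitters' processing notes. The annotation, the strand setting and any low-count filter are not given in the sources used here, so overlapping or antisense genes cannot be told apart. The deposited tables also hold the authors' log2 fold changes and p-values from edgeR 4.2.0, used here only as an alternative. Counts were tested with edgeR 4.0.16 (R 4.3.3): filterByExpr (minimum count 10, minimum total 15), TMM, the quasi-likelihood F test and Benjamini-Hochberg adjustment over all genes tested, with a threshold of 0.05. Each line was fitted on its 6 libraries. The response difference used all 24 libraries, and the levels under DMSO used 12 libraries, over 11408 shared genes. Standard errors were the log2 fold change divided by the square root of F, and CPM were scaled by TMM within each fit. The procedure was also run on simulated counts, whose outcome is not given here and is not used as support. Gene positions, span and exon length came from the deposited tables. GC content came from GENCODE release 29, for 97.3% of the shared genes. Depth was 24226553 to 36415190 counts per library, and intervals cover counting error and replicate spread only. Replicates with the same number did not pair the samples. Alternatives were RLE factors, no filter, a mean of at least 1 CPM, DESeq2 1.42.0, a replicate block, a GC correction, 1 fit over all samples, the authors' table, each library left out, and dual-named genes counted as FANC. The genes and lists were chosen with earlier results of these data known. Values in every library are given for a panel of 14 genes, for the 4 called genes with the smallest p in each line and in the response difference, and for the 3 largest differences in each DMSO comparison. Of the motif searches, the 7-letter form was added after the 8-letter result was seen, and both are reported.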

Additional observations from a re-analysis of the deposited data

Results flagged for a closer look

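The response to lurbinectedin differed between the ISL1-high and the ISL1-low lines, by a test of the difference itself, for 26 of the 46 genes (edgeR's quasi-likelihood test on all 24 libraries). Among the genes that sense and trim breaks, the difference in log2 fold change was 0.71 for EXO1, 0.37 for RBBP8, 0.18 for NBN and 0.12 for MRE11. In the BRCA complexes it was 0.63 for BRCA2, 0.50 for BRIP1, 0.42 for BRCA1, 0.33 for BARD1 and 0.22 for PALB2. Among the paralogs it was 0.49 for XRCC3, 0.32 for RAD51D, 0.22 for XRCC2 and -0.46 for RAD51B. It was 0.48 for RAD54L, 0.25 for RAD52, 0.38 for RPA2, 0.32 for BLM, 0.16 for RMI1 and 0.25 for RMI2. In the Fanconi pathway it was 0.35 for FANCG, 0.27 for FANCE, 0.23 for FANCC, 0.21 for USP1, 0.17 for REV1, 0.14 for FANCI and -0.21 for FANCD2. The differences for MRE11 (adjusted p = 0.062 without H209 lurbinectedin replicate 1) and RAD52 (adjusted p = 0.051 without SHP-77 DMSO replicate 3 or lurbinectedin replicate 1) passed the threshold only with those libraries. NBN and RAD52 were called in no single line.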

How the results depend on the processing

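Of the 21 calls in H187, 18 were kept under every alternative, as were 21 of 32 in H209, 0 of 1 in H82, 4 of 7 in SHP-77, and 24 of 26 for the response difference. In the line and response comparisons, no gene called in the main fit or in an alternative had the opposite sign between them. Sign changes of values called in neither were not counted. With DESeq2, the genes called lower in H209 numbered 1. With the GC correction, the recombination median was 0.20 for H209, -0.04 for H82 and 0.07 for SHP-77, and the FANC median 0.10 for H209, -0.03 for H82 and 0.02 for SHP-77. With all 24 samples in 1 fit, 4 genes were called lower in H82 and 3 higher in SHP-77, and the recombination median was 0.21 in H209 and -0.07 in H82. With a mean of at least 1 CPM the FANC median in SHP-77 was 0.04. With dual-named genes counted as FANC, the recombination medians were 0.12 in H187, 0.14 in H209 and 0.04 in SHP-77, and the FANC medians 0.11 in H187, 0.15 in H209 and 0.07 in SHP-77, so that the FANC median was the higher in H209 and SHP-77. The cause of these changes was not tested.

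Replicate numbers were checked for pairing: the correlation of same-numbered libraries ran from -0.157 to 0.0754. For differently numbered libraries it ran from -0.122 to 0.194. The numbers thus showed no sign of pairing, but with 3 libraries a group this cannot exclude that same-numbered samples were handled together. With the replicate block, 18 genes were called higher in H187, 28 in H209 and 4 in SHP-77, while H82 had 0 higher and 3 lower.

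With each library left out in turn, H187 had 17 to 22 genes higher and 1 lower, and H209 had 23 to 27 higher and 1 to 4 lower. H82 had 0 higher and 0 to 6 lower (6 without DMSO replicate 3), and SHP-77 had 3 to 6 higher and 1 to 2 lower. For H187 the recombination median lay between 0.14 and 0.19 and the FANC median between 0.04 and 0.09. For H209 they lay between 0.19 and 0.22 and between 0.09 and 0.15. For H82 they lay between -0.07 and -0.05 and between -0.01 and 0.01, and for SHP-77 between 0.03 and 0.08 and between 0.02 and 0.03. For the response difference 23 to 26 genes were above 0 and 2 below. Under DMSO the ISL1-high lines had 28 to 30 genes higher and 12 to 13 lower. H187 had 27 to 28 higher and 12 to 14 lower, H209 23 to 25 and 14 to 16, H82 18 to 20 and 19, and SHP-77 10 to 13 and 28 to 29. With 3 replicates a group, the calls lost were of small log2 changes.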
